A study of Mus musculus with 12 samples.

Results

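The comparison described here is that of p21 loss on a background of Jab1 loss in sorted oligodendrocytes. Double mutants, with the genotype p21-/- Cnp-Cre:Jab1flfl, were compared with Jab1 mutants, with the genotype Cnp-Cre:Jab1flfl, in 4 samples each. Its members were the 17716 genes that reached at least 1 CPM (counts scaled to the size of each library) in at least 4 of the 12 samples of the series, out of 55376 gene symbols counted. RNA-Seq was performed on oligodendrocytes from the brains of C57BL/6 mice at postnatal day 40, each sample holding the cells of 2 brains. Live single cells without the leukocyte marker CD45 and with O1, a galactolipid antigen on the surface of differentiated oligodendrocytes, were collected by FACS after collagenase dissociation, a Percoll gradient and removal of myelin. In both groups Cre recombinase under the promoter of the oligodendrocyte gene Cnp deletes Jab1, which encodes subunit 5 of the COP9 signalosome, so the deletion is limited to cells in which that promoter is or was active. The p21 knockout (gene symbol Cdkn1a) is carried in the germline and affects every cell of the animal, so effects within oligodendrocytes and effects of other p21-null cells on them cannot be told apart. The paper lists this knockout under a different mouse strain from the floxed Jab1 and Cnp-Cre alleles, with backcrossing. A group with p21 loss and intact Jab1 was not analysed here. The 4 wild-type (WT) samples of the series entered the filter and the normalization, and their levels are given beside those of the mutants for orientation only.

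p21 binds and inhibits cyclin-dependent kinases, and p53 induces it after DNA damage. Its sustained expression is a hallmark of cellular senescence, a stable exit from the cell cycle that is often accompanied by secretion of cytokines, chemokines and proteases. Mature oligodendrocytes are postmitotic cells that wrap axons in a lipid-rich membrane, and they depend on high synthesis of myelin proteins, cholesterol and galactolipids. The study sequenced these cells to learn whether removing p21 changes the senescence-related and inflammatory transcripts of Jab1-mutant oligodendrocytes.

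Total counts were 61485556 to 111365583 in Jab1 mutants and 91564521 to 116034670 in double mutants. Replicates within a genotype were far from alike, and this bears on every result that follows. On the first principal component of the 12 samples, which held 34.3% of the variance, the WT samples lay between -92.1 and -56.7, and Jab1-mutant samples 1, 3 and 4 lay between 69.0 and 82.9. Jab1-mutant sample 2 stood apart from these at 11.4. Double-mutant samples 1 and 2, at -39.2 and -27.0, lay nearer to WT, whereas samples 3 and 5, at 64.0 and 59.4, lay among the Jab1 mutants. The labels give no sex for the animals. The X-inactivation transcript Xist was at 255 to 698 CPM in Jab1-mutant samples 1, 2 and 3 and double-mutant samples 1 and 5 and at 0.0317 CPM or less in the other three mutant samples, so samples of both kinds were in each genotype. The samples of a genotype are labelled as separate samples, and p-values measure the spread between them.

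The label of the cells was checked against marker genes. All 14 markers of mature oligodendrocytes were detected in every sample, and their summed level was 9166 to 35876 CPM in Jab1 mutants, 17081 to 53909 CPM in double mutants and 46857 to 107891 CPM in WT. Markers of other cells were also read. The 20 markers of microglia summed to 1231 to 3030 CPM in Jab1 mutants. In double mutants their sums were 464 CPM in sample 1, 1033 CPM in sample 2, 21032 CPM in sample 3 and 2324 CPM in sample 5. Double-mutant sample 3 thus held the highest sum of microglial markers of the 12 samples. Among these markers P2ry13 and Slc2a5 were at 0 in double-mutant sample 2. Ptprc, which encodes CD45, the antigen depleted in the sort, was at 58.7, 31.7, 107 and 57.7 CPM in Jab1-mutant samples 1, 2, 3 and 4, and at 4.44, 3.11, 101 and 10.9 CPM in double-mutant samples 1, 2, 3 and 5. Double-mutant sample 3 therefore had Ptprc within the range of the Jab1 mutants, while the other double-mutant samples were below that range. The 13 endothelial markers summed to 1093 to 7740 CPM in Jab1 mutants and 916 to 8436 CPM in double mutants, and the 7 erythroid markers, led by hemoglobin genes, to 5205 to 88040 CPM and 4310 to 22111 CPM. Of the markers of T cells only 2 of 10 passed the filter on low values, of B cells 1 of 8, of neutrophils and monocytes 2 of 12, and of border macrophages 5 of 9. The part of these other cells in the differences between genotypes was not tested beyond the values given beside each result. In such bulk samples, fewer cells of a type and less RNA per cell cannot be told apart.

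**Figure D1:**
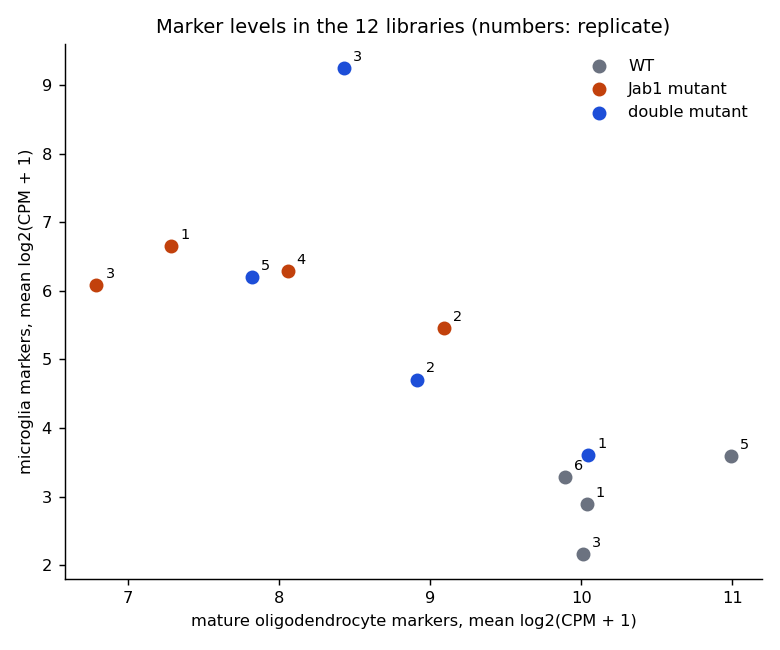
Level of mature oligodendrocyte markers (x axis) and of microglial markers (y axis) in each of the 12 samples, as the mean of log2(CPM + 1) over the markers of the list. Each point is a sample, coloured by genotype and numbered by replicate. Double-mutant sample 3 lies highest on the y axis at 9.24, and the other double mutants lie between 3.61 and 6.20.

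Cdkn1a itself was read first, as the gene that separates the genotypes. It was at 379, 397, 396 and 637 CPM in the 4 Jab1-mutant samples and at 84.5, 103, 101 and 64.7 CPM in the 4 double-mutant samples. The groups did not overlap, and the lowest Jab1-mutant sample was above the highest double-mutant sample. The means were 452 ± 124 (SD, n = 4) and 88.4 ± 17.9 CPM, a log2 fold change of -2.35 (SE 0.32). The adjusted p was 0.0916 by edgeR's quasi-likelihood test, 1.57e-10 by DESeq2 and 0.0486 by limma-voom. In WT samples Cdkn1a was at 16.0 to 85.3 CPM. Cdkn1a lies on chromosome 17 at positions 29090976 to 29100727 of the plus strand (GRCm38) and overlaps the antisense gene AC167363.2. Reads were thus still assigned to the gene in the double mutants, and the counts do not tell which exons they came from or whether they came from the antisense gene.

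The remaining parts of the genetic design had groups that overlapped between the mutants. Cops5, the Jab1 gene, was at 89.0, 65.2, 68.4 and 45 CPM in Jab1 mutants and at 47.3, 44.2, 90.4 and 52.3 CPM in double mutants. The groups overlapped, and the log2 fold change was -0.19 (SE 0.34), with WT at 46.3 to 133 CPM. All 10 COP9 signalosome genes passed the filter, 2 with a negative and 8 with a positive log2 fold change (median 0.26), and none reached an unadjusted p below 0.05. Cnp, whose promoter drives the recombinase and whose product is an enzyme of myelin membranes, was at 689, 1660, 227 and 548 CPM in Jab1 mutants and at 2571, 1342, 1261 and 845 CPM in double mutants (log2 fold change 0.95, SE 0.57, adjusted p = 0.996 by edgeR). Its groups overlapped, and all mutant samples were below the 4833 CPM of the lowest WT sample.

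Across all 17716 genes, edgeR's quasi-likelihood test called no gene at an adjusted p below 0.05 (0 genes, 0%). The smallest adjusted p was 0.0875, that of Ccdc88b. An unadjusted p below 0.05 was reached by 885 genes, 575 lower in double mutants (3.25% of genes tested) and 310 higher (1.75%), which together is near the share that the threshold itself gives. DESeq2 on the same 8 samples called 67 genes lower (0.378%) and 20 higher (0.113%), and limma-voom called 1 gene, Cdkn1a, lower. The 4 double-mutant samples were all below the 4 Jab1-mutant samples for 353 genes (1.99%) and all above them for 217 genes (1.22%). Of the 17716 log2 fold changes 8623 were negative and 9093 positive, with a median of 0.02. The 67 and 20 genes are therefore described below as DESeq2 calls that edgeR did not make.

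These counts moved with single samples. Without Jab1-mutant sample 2, edgeR called 2 genes lower, Plcb2 and Ccdc88b, and 1719 genes were at an unadjusted p below 0.05, 884 of them lower and 835 higher. Without Jab1-mutant sample 3 or sample 4 there were 582 and 564 such genes. DESeq2 without Jab1-mutant sample 2 called 227 genes lower and 182 higher, among them 63 of the 67 and all 20. Without double-mutant sample 3 it called 145 lower and 18 higher, among them 58 of the 67 and 14 of the 20, and without both samples 301 lower and 188 higher, among them 62 and 15.

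**Figure D2:**
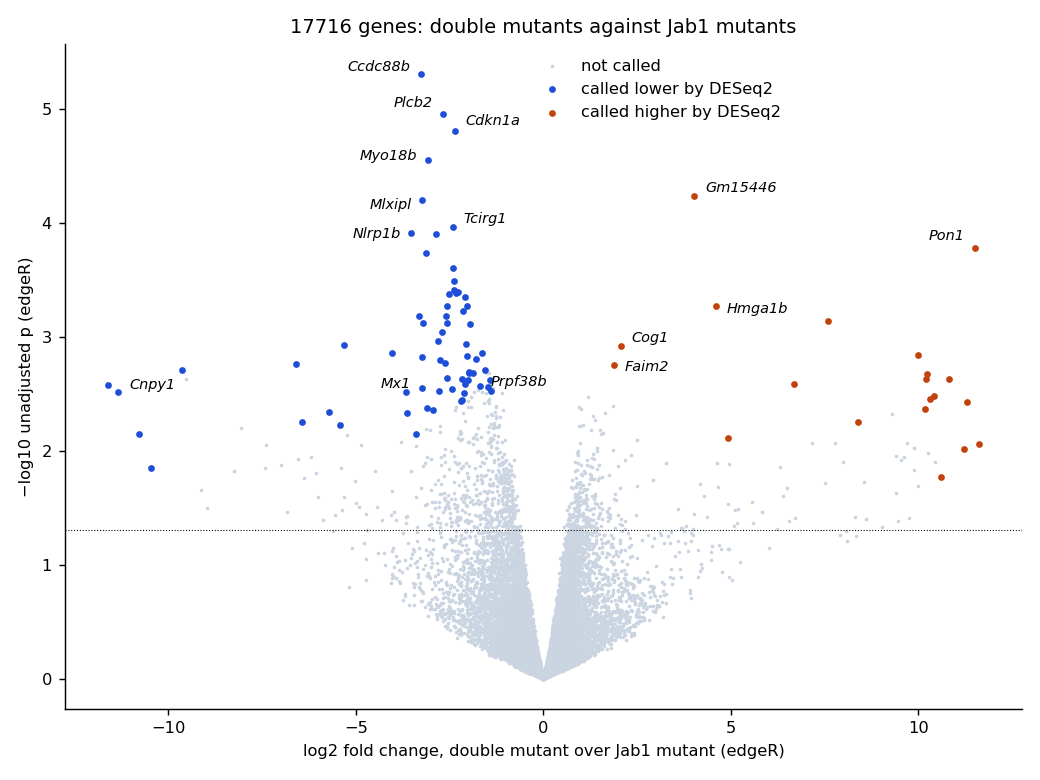
Log2 fold change of each of the 17716 genes in double mutants over Jab1 mutants (x axis) against -log10 of the unadjusted edgeR p (y axis). Blue points are the 67 genes called lower and orange points the 20 called higher by DESeq2, and the dotted line marks the unadjusted threshold of 0.05. The genes with the smallest p, Ccdc88b, Plcb2 and Cdkn1a, lie on the lower side, and genes with very large positive values are mostly at 0 in every Jab1-mutant sample.

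The genes lower in double mutants were genes that were high in Jab1 mutants. All 67 genes called lower by DESeq2 had a higher mean in Jab1 mutants than in WT, and for 53 of them every WT sample lay below every Jab1-mutant sample. In 45 of the 67 the double-mutant mean was still above that of WT. The samples did not overlap between the mutants for 57 of the 67, the median log2 fold change was -2.57, and 51 were protein coding. Jab1-mutant sample 2 had the lowest Jab1-mutant value in 51 of them. Double-mutant sample 3, the sample rich in microglial markers, had the highest double-mutant value in 25. Since these genes were picked for a high level in Jab1 mutants relative to double mutants, their level relative to WT is a description and not a test.

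The leading genes belonged to different classes of function. Ccdc88b, a coiled-coil protein known from leukocytes (chromosome 19, 6844623 to 6858211, minus strand), was at 89.4, 39.9, 85.8 and 74.3 CPM in Jab1 mutants and at 5.83, 6.74, 11 and 6.79 CPM in double mutants. Its groups did not overlap (log2 fold change -3.25, SE 0.39, adjusted p = 0.0875 by edgeR and 1.33e-11 by DESeq2), and WT samples were at 0.195 to 1.15 CPM. Plcb2, a phospholipase C that acts downstream of G protein-coupled receptors (chromosome 2, 118707517 to 118728438, minus strand), was at 123, 54.6, 97.6 and 116 CPM in Jab1 mutants and at 12.8, 12.7, 17.1 and 18.8 CPM in double mutants (log2 fold change -2.67, SE 0.35, adjusted p = 0.0916 by edgeR). Double-mutant sample 3 was the highest double mutant for Ccdc88b and lay between the others for Plcb2, and for both genes it was below every Jab1 mutant. Nlrp1b, a sensor that assembles an inflammasome, was at 25.6, 16.1, 44.7 and 31.4 CPM in Jab1 mutants and at 1.07, 1.47, 3.52 and 4.22 CPM in double mutants (log2 fold change -3.52). Pou2f2, a transcription factor best known from B cells, was at 217, 106, 240 and 210 CPM and at 21.2, 19.0, 23.6 and 72.7 CPM (log2 fold change -2.50). The 4 double-mutant samples of both genes were below all Jab1 mutants.

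The regions before the start of 6 of these genes are shown as examples of immune genes that DESeq2 called lower in double mutants, picked after their values were seen, so that their proximal promoters can be compared. They are the 250 bases upstream of a start in RefSeq (GRCm38.p6), each written 5' to 3' on the strand of its gene. For a gene with several starts, only windows that held the marked match were kept, so a match there is not a result. The windows of Fyb and Pou2f2 lie inside the annotated genes (6522853 to 6663313 and 25087344 to 25179726), upstream of internal starts. They lie at chr19:6858212-6858461 for Ccdc88b, chr2:118728439-118728688 for Plcb2, chr7:25132461-25132710 for Pou2f2, chr11:71230734-71230983 for Nlrp1b and chr3:89913197-89913446 for Il6ra, all on the minus strand, and at chr15:6579597-6579846 on the plus strand for Fyb. Capitals mark the core of the ETS family of transcription factors, GGAAGT, on either strand, except in Fyb, where they mark the core of the interferon-stimulated response element, GAAANNGAA. The match begins 218 and 17 bases before the start in Plcb2, 71 in Pou2f2, 94 in Nlrp1b, 173 and 12 in Il6ra and 204 in Fyb, and the Ccdc88b window holds none.
Ccdc88b: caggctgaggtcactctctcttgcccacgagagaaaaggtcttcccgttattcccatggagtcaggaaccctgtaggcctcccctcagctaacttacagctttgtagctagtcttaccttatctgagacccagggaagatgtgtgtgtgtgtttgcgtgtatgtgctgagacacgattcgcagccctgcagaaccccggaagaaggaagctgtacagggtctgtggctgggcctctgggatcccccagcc
Plcb2: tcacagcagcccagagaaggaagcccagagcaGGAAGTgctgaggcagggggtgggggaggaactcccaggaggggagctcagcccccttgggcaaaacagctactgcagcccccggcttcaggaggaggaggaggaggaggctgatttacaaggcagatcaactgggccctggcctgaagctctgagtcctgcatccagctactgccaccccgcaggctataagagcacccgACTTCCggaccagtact
Pou2f2: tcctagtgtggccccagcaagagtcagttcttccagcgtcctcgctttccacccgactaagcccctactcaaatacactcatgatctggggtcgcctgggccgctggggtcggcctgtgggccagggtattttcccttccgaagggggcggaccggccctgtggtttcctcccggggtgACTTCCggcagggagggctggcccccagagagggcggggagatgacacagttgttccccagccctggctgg
Nlrp1b: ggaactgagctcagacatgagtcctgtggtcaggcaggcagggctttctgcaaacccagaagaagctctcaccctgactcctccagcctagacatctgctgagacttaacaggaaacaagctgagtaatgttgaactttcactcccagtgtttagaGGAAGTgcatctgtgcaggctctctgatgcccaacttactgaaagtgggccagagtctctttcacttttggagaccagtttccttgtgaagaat
Il6ra: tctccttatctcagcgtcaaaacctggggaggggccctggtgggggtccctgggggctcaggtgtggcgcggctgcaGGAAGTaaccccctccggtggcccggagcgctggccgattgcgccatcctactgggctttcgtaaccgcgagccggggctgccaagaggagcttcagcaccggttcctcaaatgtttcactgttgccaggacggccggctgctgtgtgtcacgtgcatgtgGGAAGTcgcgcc
Fyb: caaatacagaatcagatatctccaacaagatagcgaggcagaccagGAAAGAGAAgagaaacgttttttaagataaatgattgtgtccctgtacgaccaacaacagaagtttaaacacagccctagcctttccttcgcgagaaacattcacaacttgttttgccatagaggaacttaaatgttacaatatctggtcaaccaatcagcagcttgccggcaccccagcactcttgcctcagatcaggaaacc

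Over all 32851 promoters of this length, 19.7% held the ETS core and 7.13% the interferon core. Counted by gene, 25.7% of the 11724 genes tested that had a promoter sequence held the ETS core, as compared with 11 of 46 genes called lower by DESeq2 (23.9%) and 32 of 65 genes of the hematopoietic signalling list (49.2%). The interferon core was held by 7.51% of the genes tested, by 7 of the 46 called lower (15.2%) and by 23 of 42 interferon-stimulated genes (54.8%). Of 13 genes called higher that had a promoter sequence, 3 (23.1%) held the interferon core and 3 (23.1%) the ETS core. Such a match is a description of the letters in the window and not a site. The share with the ETS core among the genes called lower was close to that of all genes tested, and the share in the hematopoietic list was read over that whole list, of which DESeq2 called 14 of 85 genes.

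Outside the immune genes, the leading genes lower in double mutants included muscle, metabolic and lysosomal genes. Myo18b, an unconventional myosin of striated muscle, was at 58.2, 23.1, 47.6 and 23.1 CPM in Jab1 mutants and at 4.68, 3.98, 4.85 and 4.36 CPM in double mutants (log2 fold change -3.09). Mlxipl, which encodes the glucose-responsive transcription factor ChREBP, was at 63.7, 44.9, 126 and 34.2 CPM and at 3.92, 10.9, 6.08 and 7.85 CPM (log2 fold change -3.22), with WT at 5.01 to 12.9 CPM. Tcirg1, a subunit of the proton pump that acidifies lysosomes, was at 370, 231, 624 and 358 CPM and at 79.9, 92.1, 86.2 and 38.5 CPM (log2 fold change -2.42), with WT at 67.3 to 124 CPM. None of these groups overlapped. Usp35, a deubiquitinase, was at 345, 107, 285 and 321 CPM in Jab1 mutants and at 56.9, 48.7, 52.6 and 99.4 CPM in double mutants (log2 fold change -2.04), with the groups close at their edges. Of 15 sarcomere and muscle genes 9 passed the filter. DESeq2 called 3 of the 9 lower, namely Myo18b, Tnni3 and Ttn, beside 0.378% of all genes tested. The giant sarcomere protein gene Ttn had overlapping groups, since Jab1-mutant sample 2 was at 7.25 CPM and the highest double mutant at 9.73 CPM. Comp, which encodes a matrix protein of cartilage, was at 8.37, 3.44, 31.5 and 8.08 CPM in Jab1 mutants and at 0.444 CPM or less in double mutants. With WT at 0.293 CPM or less, Comp passed the filter only through the Jab1 mutants and could only appear as lower.

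**Figure D3:**
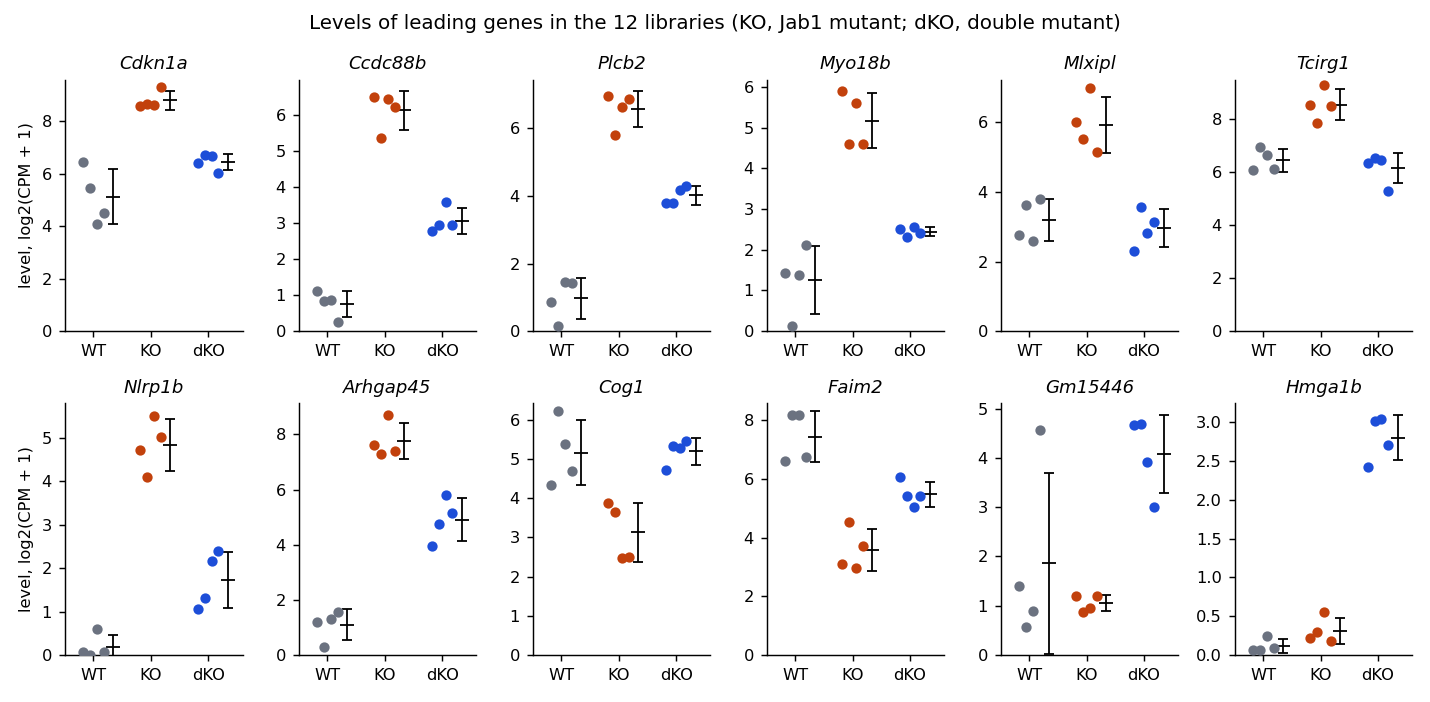
Level of 12 leading genes in the 12 samples as log2(CPM + 1) on the y axis. Each point is a sample of WT, Jab1 mutants (KO) or double mutants (dKO), and the bar beside each group gives its mean and SD (n = 4). In the first 8 panels, from Cdkn1a to Arhgap45, every double mutant lies below every Jab1 mutant, and in the last 4, Cog1, Faim2, Gm15446 and Hmga1b, every double mutant lies above.

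The longest list compared held genes of hematopoietic signalling, whose products couple surface receptors of leukocytes to the cytoskeleton. This list was drawn up from genes that lead the response of Jab1 mutants over WT in these same samples, so that its direction in double mutants is not independent evidence. Of its 89 genes 85 passed the filter, and 53 of these had a negative log2 fold change and 32 a positive one, with a median of -0.43 as compared with 0.02 over all genes. At an unadjusted p below 0.05, 19 were lower and 1, Vav3, was higher, beside 3.25% and 1.75% of all genes tested. DESeq2 called 14 lower, beside 0.378% of all genes. In 18 the samples did not overlap on the lower side, beside 1.99% of all genes. Its mean level, log2(CPM + 1), was 4.87, 4.10, 4.90 and 4.50 in Jab1-mutant samples 1, 2, 3 and 4 and 2.51, 3.15, 5.19 and 3.52 in double-mutant samples 1, 2, 3 and 5, with WT at 1.92 to 2.06. Double-mutant sample 3 was thus above all Jab1 mutants, and the other double mutants were below them. Without double-mutant sample 3 the median log2 fold change of the list was -1.57, without double-mutant sample 1 it was -0.26, the other extreme when each sample was left out, and without sample 3 and Jab1-mutant sample 2 it was -1.80. The microglial markers moved with this sample too, from a median of 1.43 with it to -0.93 without it.

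Within the list the groups of function differed in how many members were lower. Of the 23 regulators of small GTPases 15 had negative values (median -1.06). On the lower side 8 reached an unadjusted p below 0.05 and DESeq2 called 6, beside 3.25% and 0.378% of all genes tested. Arhgap45, which inactivates small GTPases in hematopoietic cells, was at 197, 156, 416 and 166 CPM in Jab1 mutants and at 14.6, 25.8, 54.9 and 34.4 CPM in double mutants (log2 fold change -2.85). Arhgap30, another inactivator of small GTPases, was at 53.8, 30.5, 102 and 51.7 CPM and at 6.06, 9.14, 15.4 and 15.2 CPM (log2 fold change -2.38). Neither had overlapping groups. Cyth4, an activator of Arf proteins, was at 212, 141, 317 and 187 CPM in Jab1 mutants and at 21.4, 20.8, 118 and 28.8 CPM in double mutants, where sample 3 was the highest double mutant and still the groups did not overlap. Of the 8 lipid enzymes 6 had negative values (median -1.06), and DESeq2 called Plcb2 and Pik3cd, the catalytic subunit of the leukocyte phosphoinositide 3-kinase, lower. Pik3cd was at 45.9, 27.7, 61.1 and 49.0 CPM in Jab1 mutants and at 6.16, 3.37, 19.9 and 11.8 CPM in double mutants.

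The signs of the adaptors and G protein signalling genes were mixed when all samples were used. Of 13 adaptors 5 had negative and 8 positive values (median 0.13), and of 12 G protein signalling genes 5 and 7 (median 0.21). The level of the adaptors was 5.22, 3.87, 4.52 and 4.66 in Jab1 mutants and 2.45, 3.10, 6.03 and 3.72 in double mutants, and that of the G protein signalling genes 5.16, 4.57, 5.04 and 4.86 and 3.25, 3.77, 6.17 and 4.35. In both, double-mutant sample 3 was above all Jab1 mutants and the other double mutants were below them. Fyb, an adaptor that links immune receptors to actin and integrins, was at 514, 212, 538 and 601 CPM in Jab1 mutants and at 51.4, 55.1, 136 and 128 CPM in double mutants (log2 fold change -2.33, DESeq2 adjusted p = 9.45e-05). Apbb1ip, an adaptor between Rap1 and integrins, was at 37.8, 22, 64.0 and 32.4 CPM and at 2.84, 2.41, 11.2 and 7.76 CPM (log2 fold change -2.69). Arrb2, a beta-arrestin that desensitizes G protein-coupled receptors, was at 66.0, 60.2, 141 and 62.6 CPM in Jab1 mutants and at 10.6, 11.4, 27.8 and 12.9 CPM in double mutants (log2 fold change -2.40). None of these groups overlapped. Of 12 receptor-proximal kinases and phosphatases 10 had negative values (median -0.78), and Fes, a tyrosine kinase of myeloid cells, was the 1 that DESeq2 called lower, at 57.6, 49.4, 72.9 and 42.0 CPM as compared with 5.56, 8.44, 20.6 and 15.3 CPM.

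Among 22 myeloid transcription factors that passed the filter out of 26, 17 had negative values and the median was -1.0. At an unadjusted p below 0.05, 7 were lower and 0 higher, beside 3.25% and 1.75% of all genes tested. DESeq2 called Pou2f2, Elf4 and Lyl1 lower, beside 0.378% of all genes. Elf4, an ETS factor of lymphoid and myeloid cells, was at 7.46, 6.11, 6.64 and 6.87 CPM in Jab1 mutants and at 0.192, 0.174, 1.28 and 0.481 CPM in double mutants. Outside the Jab1 mutants, Elf4 reached 1 CPM only in WT sample 1 (1.13 CPM) and double-mutant sample 3. It therefore passed the filter only through the Jab1 mutants and could only appear as lower. Lyl1, a basic helix-loop-helix factor of blood stem cells, was at 14.7, 11.1, 24.8 and 19.3 CPM and at 4.65, 3.94, 3.57 and 5.66 CPM, with WT at 0.0198 to 0.401 CPM. Both genes had separate groups, and in neither was double-mutant sample 3 near the Jab1 mutants. By contrast, Spi1, the factor that defines the myeloid lineage, had a log2 fold change of 1.31 with an unadjusted p of 0.364, and of -1.0 without double-mutant sample 3.

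**Figure D4:**
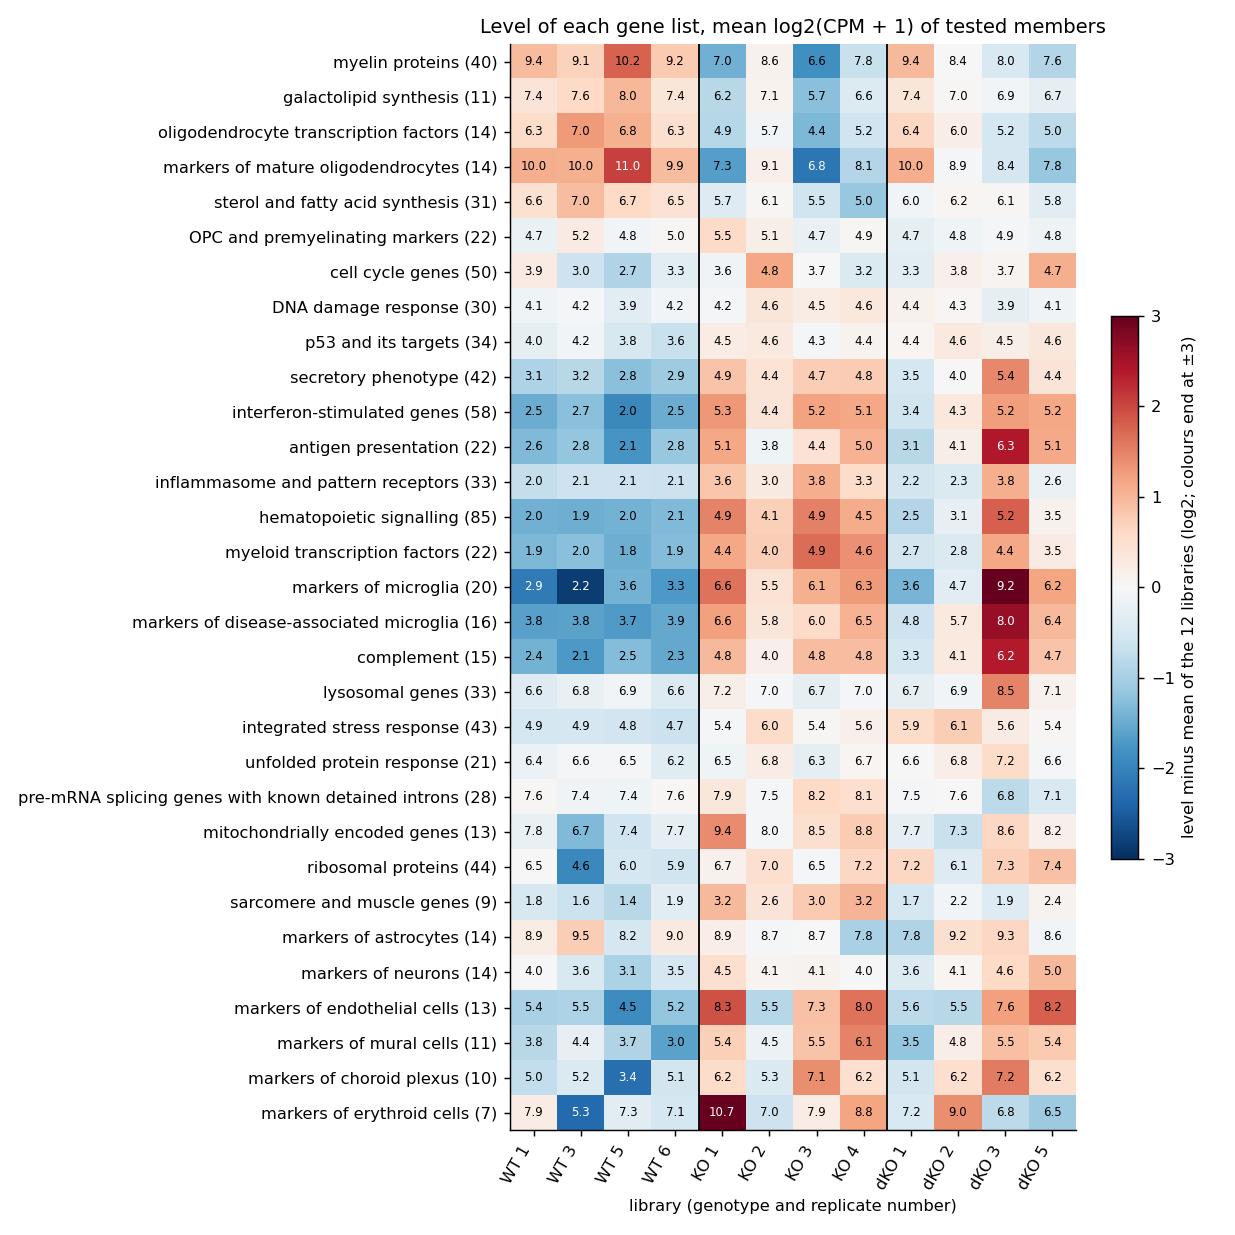
Level of each gene list in each of the 12 samples, as the mean of log2(CPM + 1) over the members that passed the filter, whose number stands in parentheses. Colour gives the level minus the mean of the 12 samples, ending at 3 in both directions. In microglial markers double-mutant sample 3 is at 9.24 and double-mutant sample 1 at 3.61, and in myelin proteins Jab1-mutant sample 3 is lowest at 6.62.

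Genes of the inflammasome, the complex that processes interleukin-1, had mostly negative values. Of 13 inflammasome genes 11 were negative, with a median of -1.72. DESeq2 called 2, Nlrp1b and Naip5, lower, beside 0.378% of all genes tested. Il6ra, the receptor of interleukin-6, which belongs to none of these lists, was at 26.6, 23.9, 68.0 and 48.8 CPM in Jab1 mutants and at 6.52, 3.18, 14.5 and 14.1 CPM in double mutants (log2 fold change -2.13, DESeq2 adjusted p = 0.0468). Naip5, a receptor for bacterial flagellin, was at 33.5, 15.9, 57.2 and 12.3 CPM in Jab1 mutants and at 1.45, 6.36, 0.0974 and 1.6 CPM in double mutants (log2 fold change -3.64). Its groups did not overlap, but it belongs to a family of near-identical copies among which reads can be split, and its counts are uncertain. Of the 20 Toll-like receptors and adaptors 10 were negative and 10 positive (median 0.01), and 0 reached an unadjusted p below 0.05. Their level was 3.72, 3.11, 3.78 and 3.15 in Jab1 mutants and 2.62, 2.70, 4.56 and 2.81 in double mutants, so that double-mutant sample 3 was above all Jab1 mutants and the other double mutants were below them. The median over the inflammasome and pattern recognition genes together was -0.27, and -1.15 without double-mutant sample 3. Whether both groups of genes differed from each other was not tested.

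Interferon-stimulated genes were divided. Of 58 that passed the filter out of 60, 34 had negative and 24 positive values (median -0.26, and 0.04 without Jab1-mutant sample 1). At an unadjusted p below 0.05, 6 were lower and 1 higher, beside 3.25% and 1.75% of all genes tested. DESeq2 called 3 lower, beside 0.378% of all genes. Oas2, a sensor of double-stranded RNA, was at 17.7, 15.1, 38.4 and 13 CPM in Jab1 mutants and at 1.57, 2.36, 2.42 and 3.32 CPM in double mutants (log2 fold change -3.12). Mx1, an antiviral GTPase, was at 13, 5.48, 37.2 and 11.7 CPM and at 1.06, 0.943, 0.799 and 4.29 CPM (log2 fold change -3.25). With WT at 0.853 CPM or less, Mx1 passed the filter only with the Jab1 mutants counted. Uba7, the enzyme that activates the ubiquitin-like protein ISG15, was at 84.7, 20.8, 58.3 and 60.2 CPM and at 7.19, 13.9, 12.7 and 9.27 CPM (log2 fold change -2.38). None of these groups overlapped. Ddx58, which encodes the viral RNA sensor RIG-I, had separate groups too (48.9, 26.2, 46.4 and 48.8 CPM as compared with 12.1, 17.5, 24.4 and 16.6 CPM) and was not called (DESeq2 adjusted p = 0.173). Ifit2, an effector that binds viral RNA, went the other way, at 10.7, 23.7, 16.7 and 2.81 CPM in Jab1 mutants and 31.1, 28.1, 27.1 and 43.5 CPM in double mutants, and it was not called (adjusted p = 0.968 by edgeR). The level of the whole list was 5.28, 4.36, 5.20 and 5.15 in Jab1 mutants and 3.40, 4.30, 5.24 and 5.16 in double mutants, so that double-mutant samples 3 and 5 were within the range of Jab1 mutants and samples 1 and 2 were below it. Of 22 antigen presentation genes 18 had positive values (median 0.55, and -0.26 without double-mutant sample 3), and 0 were called by DESeq2.

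Of the listed regulators of the cell cycle, none besides Cdkn1a was called on the 8 samples by edgeR, DESeq2 or limma-voom. Of the 6 cyclin-dependent kinase inhibitors that passed the filter, Cdkn1a included, 3 had negative and 3 positive values. Their median was 0.11, and -0.47 without double-mutant sample 5. Cdkn1b, which encodes p27, was at 16.9, 29.3, 30.7 and 25.5 CPM in Jab1 mutants and at 25.8, 17.3, 7.67 and 12.1 CPM in double mutants, with an unadjusted p of 0.143 by edgeR. Its log2 fold change was -0.70, and -1.05 to -0.48 without each sample in turn. Cdkn1c, which encodes p57, was at 48.0, 25.8, 29.5 and 28.2 CPM and at 21, 41.0, 60.1 and 54.1 CPM. Both had overlapping groups. The Ink4 inhibitors Cdkn2b, Cdkn2c and Cdkn2d had log2 fold changes of 0.66 (SE 0.94), -0.12 (SE 0.95) and 0.34 (SE 0.39), and Cdkn2a, the gene of p16, did not pass the filter, its highest value being 1.65 CPM. Of 50 cell cycle and replication genes 27 were negative and 23 positive (median -0.03, with 0.53 without Jab1-mutant sample 2 and -0.33 without double-mutant sample 5), and 0 reached an unadjusted p below 0.05 or were called by DESeq2.

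The p53 pathway around Cdkn1a was likewise near balance. Trp53, the gene of p53, was at 73.6, 81.0, 72.8 and 117 CPM in Jab1 mutants and at 60.9, 62, 89.1 and 133 CPM in double mutants, a log2 fold change of 0.00 (SE 0.34), with WT below both at 37.0 to 45.1 CPM. Of 34 genes of the p53 list that passed the filter, which does not hold Cdkn1a, 14 had negative and 20 positive values (median 0.10). Ercc5, an endonuclease of nucleotide excision repair, was the only member at an unadjusted p below 0.05, at 63.6, 55.2, 66.3 and 53.4 CPM in Jab1 mutants and 28.6, 34.3, 17.0 and 14.9 CPM in double mutants (log2 fold change -1.33, SE 0.35, unadjusted p = 0.00282), and edgeR, DESeq2 and limma-voom on the 8 samples did not call it, whereas DESeq2 on all 12 samples did. Mdm2, the ligase that degrades p53, and Ccng1, a p53-induced cyclin, had log2 fold changes of -0.09 (SE 0.50) and 0.50 (SE 0.37). Among 30 genes of the DNA damage response 19 were negative (median -0.22), and DESeq2 called 1 lower. This was Rnf169, which binds ubiquitylated chromatin at double-strand breaks, at 38.7, 32.5, 71.8 and 51.8 CPM in Jab1 mutants and 15, 18.0, 6.55 and 10.3 CPM in double mutants. Its groups did not overlap.

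The secretory phenotype of senescent cells was described by 52 cytokines, chemokines, proteases and growth factors, of which 42 passed the filter. Of these 24 had negative and 18 positive values (median -0.06, and -0.59 without double-mutant sample 3), none was called by edgeR, DESeq2 or limma-voom on the 8 samples, and 1, Plau, was lower at an unadjusted p below 0.05. Plau, the urokinase protease, was at 2.84, 3.68, 6.09 and 1.32 CPM in Jab1 mutants and at 0.288, 0.150, 0.312 and 0.743 CPM in double mutants (log2 fold change -3.22, unadjusted p = 0.0137). The groups did not overlap, at levels near the filter. Outside the Jab1 mutants only WT sample 3, at 1.20 CPM, reached 1 CPM. Plau thus passed the filter only through the Jab1 mutants and could only appear as lower. The level of the list was 4.86, 4.41, 4.74 and 4.78 in Jab1 mutants and 3.47, 4.00, 5.44 and 4.39 in double mutants, and only double-mutant sample 3 was above all Jab1 mutants. The 10 chemokines among them were divided evenly between 5 negative and 5 positive values, and of the 13 cytokines 7 were negative. Il6 did not pass the filter, with a highest value of 0.955 CPM.

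Myelin genes were mostly higher in double mutants, and none passed a test adjusted over all genes. Of the 40 genes of myelin proteins 38 had positive values (median 0.79), 1 reached an unadjusted p below 0.05, and 0 were called by edgeR or DESeq2. Their level was 7.02, 8.58, 6.62 and 7.80 in Jab1 mutants and 9.42, 8.43, 7.99 and 7.59 in double mutants, with WT at 9.15 to 10.22. Jab1-mutant sample 2 lay within the range of the double mutants, and the median was 1.30 without it and 0.30 without double-mutant sample 1, the extremes when each sample was left out. Mog, a protein of the outermost myelin layer, was at 190, 878, 142 and 259 CPM in Jab1 mutants and at 1987, 712, 649 and 517 CPM in double mutants (log2 fold change 1.39, SE 0.64, adjusted p = 0.968 by edgeR). Mbp, which compacts the membrane, had a log2 fold change of -0.05 (SE 0.51). In both the groups overlapped. Gpr37, a receptor of maturing oligodendrocytes, was the member with the smallest p, at 44.7, 135, 27.3 and 71.6 CPM in Jab1 mutants and 351, 227, 158 and 83.9 CPM in double mutants (log2 fold change 1.56, unadjusted p = 0.0169). The 14 markers of mature oligodendrocytes moved with the myelin list, at levels of 7.29, 9.09, 6.79 and 8.06 in Jab1 mutants and 10.05, 8.91, 8.43 and 7.82 in double mutants.

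Lipid synthesis and the transcription factors of the lineage had the same sign. Srebf2, the master regulator of cholesterol synthesis, was at 59.5, 91.0, 53.9 and 61.9 CPM in Jab1 mutants and at 145, 126, 132 and 110 CPM in double mutants, with WT at 141 to 332 CPM. Srebf1, which governs fatty acid synthesis, was at 154, 179, 133 and 89.4 CPM and at 204, 359, 366 and 195 CPM. In both genes every double mutant was above every Jab1 mutant, with log2 fold changes of 0.95 (SE 0.28, unadjusted p = 0.00608) and 1.02 (SE 0.34, unadjusted p = 0.0134), and neither was called by edgeR, DESeq2 or limma-voom. Of the 31 sterol and fatty acid genes 27 had positive values (median 0.46). At an unadjusted p below 0.05, 5 were higher, beside 1.75% of all genes tested. In 4 the groups did not overlap on the higher side, beside 1.22% of all genes. The member of this list that DESeq2 called was Mlxipl, on the lower side. For the 11 genes of galactolipid synthesis, which make the O1 antigen used for the sort, 10 were positive (median 0.65), led by the desaturase gene Degs1 at 175, 244, 117 and 171 CPM in Jab1 mutants and 479, 232, 342 and 250 CPM in double mutants. For the 14 lineage transcription factors 12 were positive (median 0.56), among them Sox10, which directs oligodendrocyte differentiation, at 11.6, 44.4, 16.0 and 47.7 CPM in Jab1 mutants and 177, 79.9, 37.4 and 24.2 CPM in double mutants. Both had overlapping groups. The 22 markers of oligodendrocyte progenitor and premyelinating cells were balanced, with 12 negative and 10 positive (median -0.11).

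**Figure D5:**
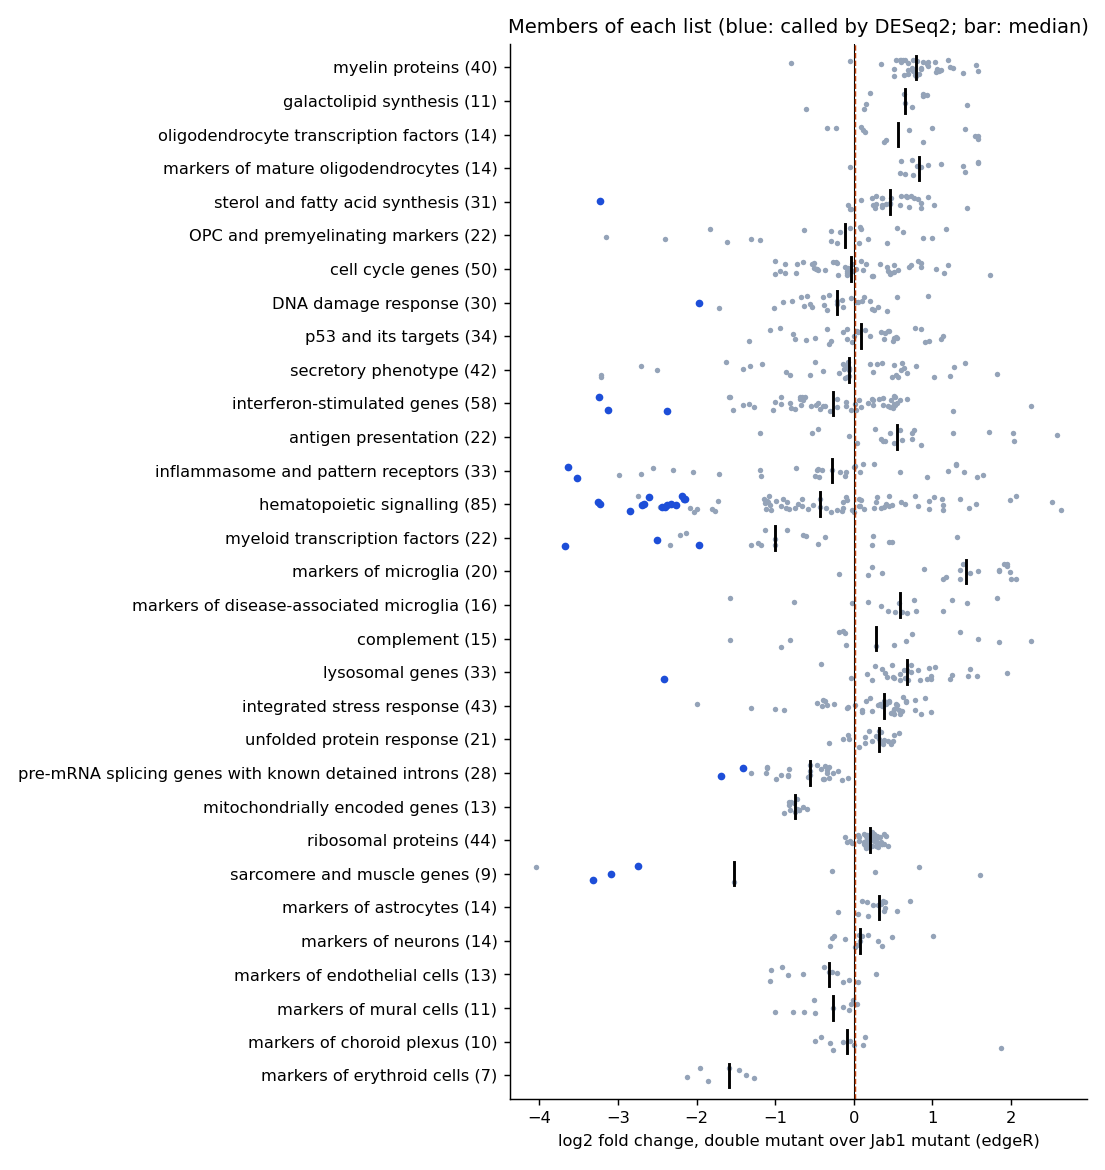
Log2 fold change in double mutants over Jab1 mutants (x axis) of each member of each list (y axis), with the number of members that passed the filter in parentheses. Each point is a gene, blue where DESeq2 called it, the bar is the median of the list, and the dashed line the median of all 17716 genes, 0.02. All 28 splicing genes lie below 0, and 38 of 40 myelin protein genes lie above 0.

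A list of pre-mRNA splicing genes whose transcripts are known to retain introns was lower throughout. All 28 members had negative values (median -0.55). At an unadjusted p below 0.05, 9 were lower and 0 higher, beside 3.25% and 1.75% of all genes tested. DESeq2 called 2, Srek1 and Prpf38b, lower, beside 0.378% of all genes. Srek1, an SR-related splicing regulator, was at 372, 186, 511 and 530 CPM in Jab1 mutants and at 173, 148, 134 and 146 CPM in double mutants (log2 fold change -1.41). Prpf38b, a factor of spliceosome activation, was at 465, 141, 426 and 699 CPM and at 149, 123, 115 and 152 CPM (log2 fold change -1.68), and its groups overlapped through Jab1-mutant sample 2. The level of the list was 7.90, 7.49, 8.16 and 8.06 in Jab1 mutants, 7.52, 7.57, 6.77 and 7.10 in double mutants and 7.43 to 7.59 in WT. Jab1-mutant sample 2 thus lay at the level of WT and of double-mutant samples 1 and 2, and the median was -0.41 without double-mutant sample 3. The counts do not separate spliced from intron-containing transcripts.

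Lists of mitochondrial, ribosomal and stress genes were described by the same counts. All 13 mitochondrially encoded genes had negative values (median -0.75) and 0 reached an unadjusted p below 0.05. mt-Cytb, a subunit of respiratory complex III, was at 24052, 7863, 11069 and 12243 CPM in Jab1 mutants and at 5998, 5143, 11967 and 7965 CPM in double mutants, with overlapping groups. Of 44 ribosomal protein genes 40 were positive (median 0.21). Of 43 genes of the integrated stress response 31 were positive (median 0.39), and within them the amino acid enzymes, transporters and tRNA synthetases had 21 of 24 positive (median 0.45). Of 21 genes of the unfolded protein response 17 were positive (median 0.32, and -0.06 without double-mutant sample 3), of 15 heat shock proteins 14 (median 0.15), and of 21 immediate early genes 7 (median -0.18, and 0.06 without Jab1-mutant sample 1). For lysosomal genes 30 of 33 were positive (median 0.68, and 0.15 without double-mutant sample 3), Tcirg1 being the 1 called lower. Npc1, which exports cholesterol from lysosomes, was at 49.0, 77.1, 64.7 and 78.5 CPM in Jab1 mutants and 185, 93.6, 113 and 82.4 CPM in double mutants without passing an adjusted threshold. Of 28 antioxidant genes 22 were positive (median 0.17), and of 15 complement genes 8 (median 0.28, and -0.72 without double-mutant sample 3).

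Markers of other cells were read in the same way. Of 20 microglial markers 19 had positive values with 0 called by DESeq2, and the sign of the median depended on double-mutant sample 3, as given above. Of 16 markers of disease-associated microglia 13 were positive (median 0.59, and -0.23 without that sample). Of 14 astrocyte markers 13 were positive (median 0.32), of 14 neuronal markers 10 (median 0.07, and -0.45 without double-mutant sample 5), of 13 endothelial markers 2 (median -0.32, and 0.10 without Jab1-mutant sample 1), of 11 mural markers 1 (median -0.27) and of 10 choroid plexus markers 4 (median -0.09). All 7 erythroid markers were negative (median -1.59), and 2 were lower at an unadjusted p below 0.05, beside 3.25% of all genes tested. Their level was 10.71, 7.0, 7.86 and 8.82 in Jab1 mutants and 7.18, 9.03, 6.84 and 6.54 in double mutants, Jab1-mutant sample 1 being the highest.

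The 20 genes that DESeq2 called higher were mostly at low levels. In 12 of them every Jab1-mutant sample was at 0, in 15 the double-mutant mean was below 5 CPM, and 11 were protein coding. The Jab1-mutant mean was above that of WT in 1 of the 20, which is a description and not a test. Among the 67 called lower, 4 had every double-mutant sample at 0. Of these, 4930461C15Rik shared the smallest DESeq2 adjusted p (1.33e-11) and was at 4.83, 2.59, 0 and 0 CPM in Jab1 mutants. The samples did not overlap for 15 of the 20. Only 2, Cog1 and Faim2, were above 4 CPM in every mutant sample. Cog1, a subunit of a complex that tethers vesicles to the Golgi, was at 13.8, 11.6, 4.52 and 4.69 CPM in Jab1 mutants and at 25.2, 39.3, 37.6 and 43.2 CPM in double mutants (log2 fold change 2.07, DESeq2 adjusted p = 0.0124), with WT at 19.1 to 74.1 CPM. Faim2, an inhibitor of Fas-induced apoptosis, was at 7.54, 22.1, 6.86 and 12.1 CPM and at 65.8, 41.8, 31.6 and 41.2 CPM (log2 fold change 1.89, DESeq2 adjusted p = 0.0273), with WT higher still at 97.0 to 290 CPM. The double mutants of both genes were above all Jab1 mutants, and by edgeR the adjusted p was 0.645 and 0.713.

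The remaining genes called higher were low in absolute level. Pon1, which encodes a lipoprotein-associated esterase, was at 0 in all 4 Jab1-mutant samples and at 4.28, 2.31, 5.12 and 3.82 CPM in double mutants. With 3 counts per sample as the floor it was at least 105-fold higher. WT was at 0.00989 CPM or less, so Pon1 passed the filter only through the double mutants and could only appear as higher. Hmga1b was at 0.166, 0.225, 0.471 and 0.134 CPM in Jab1 mutants and at 4.37, 7.09, 7.22 and 5.55 CPM in double mutants. With WT at 0.188 CPM or less, Hmga1b too passed the filter only through the double mutants. It is a near-identical copy of Hmga1, a chromatin protein gene on another chromosome, and how reads were split between them is uncertain. Hmga1 itself was at 16.1, 11.5, 6.29 and 5.25 CPM in Jab1 mutants and at 4.25, 5.58, 9.73 and 7.44 CPM in double mutants. Gm15446 (109923400 to 109943936) and 1010001B22Rik (109995511 to 109996398) are neighbouring transcripts on chromosome 5. Gm15446 was at 1.29, 0.840, 0.927 and 1.29 CPM in Jab1 mutants and at 24.5, 24.8, 14.2 and 7.07 CPM in double mutants, and 1010001B22Rik was at 0.0416 CPM or less and at 4.43, 5.06, 3.95 and 1.61 CPM. In WT, sample 6 was at 22.9 CPM for Gm15446 and 6.72 CPM for 1010001B22Rik, whereas the other three were at 1.64 CPM or less, so that this pair also varied among WT samples.

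Among the others with all Jab1-mutant samples at 0, the bounds were at least 85.0-fold for Tspan10, 89.6-fold for Gm19569, 64.0-fold for Gm35725, 55.4-fold for Pcsk2os1, 49.3-fold for Gm11681, 45.2-fold for 4921507P07Rik, 43.0-fold for Gm17530, 41.8-fold for C030006N10Rik, 41.7-fold for Gm6345 and 36.0-fold for Gm19531. Each bound rests on the mean of the double mutants, so single samples can carry such a value. Pcsk2os1 was at 0, 1.26, 6.92 and 0 CPM in double mutants, and Gm19569 was at 0 in sample 1. WT also held these transcripts, with means from 0.593 (Gm35725) to 6.37 CPM (C030006N10Rik). Double-mutant means ran from 1.33 (Gm19531) to 3.31 CPM (Gm19569). Tspan10, a tetraspanin, was at 7.69, 0.0158, 4.84 and 0 CPM in double mutants. Ip6k3, an inositol hexakisphosphate kinase, was at 0.118 CPM or less in Jab1 mutants and at 0.982, 3.19, 8.62 and 12 CPM in double mutants. Il17re, with 1 double mutant at 0 CPM, and Tmem28, with separate groups, were also called.

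The neighbourhood of Cdkn1a was read because the knockout is an alteration of this chromosome. Within 5 Mb of Cdkn1a on chromosome 17, 247 other genes were tested. Of these 121 had negative and 126 positive values (median 0.01). At an unadjusted edgeR p below 0.05, 13 were lower and 9 higher, beside 3.25% and 1.75% of all genes tested. DESeq2 called 2 lower and 1 higher, beside 0.378% and 0.113% of all genes tested. The counts in this window were above those shares, and the reason was not tested. The paper lists the knockout under a different strain from the other alleles. Whether sequence of that strain remains around Cdkn1a in double mutants was not tested. Its bearing on the calls in this window or on those of related genes elsewhere, such as Hmga1b, was not tested either. The transcript AC122252.2 (26467560 to 26503200) was at 7.34, 11.9, 7.86 and 8.45 CPM in Jab1 mutants and at 0.694, 0.0317, 0.127 and 0.0314 CPM in double mutants, with WT at 0.207 to 1.82 CPM. AC122252.2 passed the filter only through the Jab1 mutants and could only appear as lower. Rasal3, a Ras GTPase-activating protein of leukocytes, was at 52.8, 37.2, 94.9 and 40.1 CPM and at 3.81, 9.75, 24.1 and 3.91 CPM. The groups of both genes were separate. The third was Ip6k3, given above.

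The structure of the called genes was compared with that of all genes tested, as a description. The 66 genes called lower that were found in the annotation had a median exonic length of 4080.5 bases, a median span of 25657.5 bases and a median of 12.5 exon blocks, as compared with 2954 bases, 17886 bases and 7 blocks over all genes tested. Among protein-coding genes alone the medians were 4959 bases and 15 exon blocks for the genes called lower and 3381 bases and 9 blocks for all tested. The 20 genes called higher were shorter, with a median exonic length of 2016.5 bases and 3.5 exon blocks. The GC content of exons was 50.7% for the genes called lower, 54.5% for those called higher and 49.3% over all genes tested. Longer genes collect more counts at the same level, and whether this moved with the calls was not tested.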

How the data were processed

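The deposited file holds raw counts per gene symbol that the authors made from SMART-Seq v4 libraries, trimmed, aligned to GRCm38 and counted per gene by featureCounts with GENCODE basic annotation. The submitters' processing notes name Trimmomatic 0.32, STAR 2.5.3a and R 3.5.1. Strand and multimapper settings are not given in the sources used here. All 12 columns matched a labelled sample (0 left out), with totals of 61485556 to 153495112 counts. Reads carry no molecular identifiers, so floors of 3 counts cover counting error only.

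From these counts, TMM-scaled CPM were computed here, and the quasi-likelihood test of edgeR 4.0.16 under R 4.3.3 with Benjamini-Hochberg adjustment compared the 8 mutant samples. No 2 samples of a genotype were alike within counting error (chi-square over its degrees of freedom was 330 or more). Positions came from GENCODE M21, to which 54402 symbols (98.2%) were matched. Alternatives were DESeq2 1.42.0, limma-voom (limma 3.58.1), other scalings and filters, all 12 samples in 1 fit, left-out samples and a replicate block. Code was tested on simulated data. Replicate numbers did not pair the samples.

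Members and lists were chosen with earlier results of these data known. Named genes were Cdkn1a, Cops5, Cnp, the 15 lower and 10 higher genes with the smallest edgeR p, the 3 with the smallest p of each list, cyclin-dependent kinase inhibitor, p53 and myelin genes, and DESeq2 calls. Apbb1ip, Comp, Cyth4, Ddx58, Fes, Hmga1, Ifit2, Il6ra, P2ry13, Pik3cd, Ptprc, Slc2a5, Spi1, Usp35, Vav3 and Xist were chosen after their values were seen. Single-gene results of some genes are not reported here.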

Additional observations from a re-analysis of the deposited data

Results flagged for a closer look

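For each named gene and list, the gap between the highest or lowest sample of a genotype and its nearest neighbour was divided by the range of the 4 samples on the log2(CPM + 1) scale, and a share above 0.829 marked a sample far from the others. Of 231 groups of 4 samples, 18 (7.79%) were marked, and chance marks about 1 in 20. Jab1-mutant sample 2 was the marked sample in 6 of them. It was far below the others in Ddx58 (share 0.916, at 26.2 CPM with the others at 46.4 to 48.9 CPM), in Fyb (0.850, at 212 CPM with the others at 514 to 601 CPM), in Usp35 (0.838, at 107 CPM with the others at 285 to 345 CPM) and in Pou2f2 (0.835, at 106 CPM with the others at 210 to 240 CPM). Without it the log2 fold changes were -1.45 in Ddx58, -2.57 in Fyb, -2.30 in Usp35 and -2.70 in Pou2f2, as compared with -1.27, -2.33, -2.04 and -2.50 with it. It was also lowest in the level of interferon-stimulated genes (0.858) and of complement genes (0.941).

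Jab1-mutant sample 4 was highest in Cdkn1a (0.909, at 637 CPM with the others at 379 to 397 CPM), so that the other Jab1 mutants were within a narrow range. It was also the only Jab1 mutant above 0 in Il17re (1, at 0.0269 CPM). Jab1-mutant sample 3 was highest in Arrb2 (0.893, at 141 CPM with the others at 60.2 to 66.0 CPM) and in the level of the B cell marker that passed the filter (0.913).

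Among double mutants, sample 5 was highest in Pou2f2 (0.843, at 72.7 CPM with the others at 19.0 to 23.6 CPM) and Mx1 (0.876, at 4.29 CPM with the others at 0.799 to 1.06 CPM) and lowest in Tcirg1 (0.837, at 38.5 CPM with the others at 79.9 to 92.1 CPM). Sample 1 was highest in Gm17530 (0.837), sample 2 highest in Comp (0.831) and lowest in the level of COP9 signalosome genes (0.865), and sample 3 lowest in Gm35725 (0.829) and highest in the level of disease-associated oligodendrocyte markers (0.847).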

How the results depend on the processing

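With 4 samples a genotype that spread widely, the spread between samples and not the depth limits most values. The count of genes called lower at an adjusted p below 0.05 was 0 in the main analysis, 67 with DESeq2 on the 8 samples, 101 with DESeq2 on all 12 samples, 1 with limma-voom and 5 when only the 10447 genes averaging 10 CPM or more were tested (Plcb2, Myo18b, Mlxipl, Cdkn1a and Ccdc88b). The count called higher was 20 and 51 with the 2 DESeq2 analyses and 0 in the other planned ones. Other scalings, no filter and all 12 samples in 1 fit gave 0 in both directions. Without each sample in turn, edgeR called 0 to 2 genes lower and 0 higher. Chosen after seeing the data were 6 samples without the block (0 lower, 0 higher), the analysis without Jab1-mutant sample 2 and double-mutant sample 3 (0 and 0), and DESeq2 without these samples, which called 227 lower and 182 higher without Jab1-mutant sample 2, 145 and 18 without double-mutant sample 3, and 301 and 188 without both. The 3 same-numbered pairs had correlations of deviations of -0.19, 0.08 and 0.01, so the numbers were not taken as pairs. With the replicate block on samples 1 to 3 of both genotypes edgeR called 0 lower and 0 higher, with 353 lower and 200 higher at an unadjusted p below 0.05, as compared with 476 and 258 on the same 6 samples without it. The causes of these differences were not tested.

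Of 78 named genes 52 passed the threshold under at least 1 alternative, and 6 changed sign. Many named genes were picked because DESeq2 called them, and DESeq2 is among the alternatives. The count of 52 therefore follows in part from that choice and is not a result about these genes. Over all 17716 genes tested, DESeq2 on the 8 samples called 0.378% lower and 0.113% higher. Without each sample in turn the log2 fold change of Cdkn2b ranged from -0.69 to 1.13, of Cdkn2c from -0.57 to 0.65, of Mbp from -0.31 to 0.55, of Mdm2 from -0.73 to 0.26, of Spi1 from -1.0 to 1.72 and of Trp53 from -0.28 to 0.18. With limma-voom Cdkn2c was at 0.34, Mbp at 0.17, Spi1 at -1.99 and Trp53 at -0.0023. With the replicate block Mbp was at 0.26, Spi1 at -2.42 and Trp53 at -0.12, and on those 6 samples without it Cdkn2b was at -0.23, Mdm2 at 0.074 and Trp53 at -0.10. Without Jab1-mutant sample 2 and double-mutant sample 3 Cdkn2c was at 0.20, Mdm2 at 0.46, Spi1 at -1.09 and Trp53 at -0.04. With upper-quartile scaling Trp53 was at -0.028. The medians of 20 of 43 lists moved by more than the spread between samples under at least 1 alternative, and those of microglia, hematopoietic, antigen presentation and complement genes are given with the results.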
